A study of Mus musculus with 18 samples.

Results

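Of the 21018 genes listed in at least 1 of the 3 gene count tables, 9 CC chemokine ligands were followed here: Ccl2, Ccl3, Ccl4, Ccl5, Ccl6, Ccl7, Ccl9, Ccl19 and Ccl24. They were chosen by gene symbol, with earlier results of these data known, and all 9 were listed in each table. The RNA came from livers of male C57/B6J mice aged 12 weeks, taken 4 h after an intraperitoneal injection of IL-1β at 20 µg/kg (mice ILB.9579, ILB.9582 and ILB.9583) or of saline (mice UNT.9574, UNT.9575 and UNT.9576). Aliquots of the RNA of each mouse went into 3 library kits, which gave 18 libraries. Pico is a stranded total RNA kit with enzymatic removal of ribosomal cDNA (1.7 to 2.6 ng of RNA), V4 an unstranded low-input kit with poly(A) selection (0.8 to 1.3 ng), and TruSeq a stranded poly(A) kit (200 ng). The livers had been perfused with PBS, and the labels name no other allele or agent. Counts are given below in the order ILB.9579, ILB.9582, ILB.9583 for IL-1β and UNT.9574, UNT.9575, UNT.9576 for saline.

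CC chemokines are small secreted proteins with adjacent cysteines near their amino end, which guide leukocytes through G protein-coupled receptors. Ccl2 and Ccl7 act on Ccr2 and draw monocytes, Ccl6 and Ccl9 are mouse ligands of Ccr1, and Ccl3, Ccl4 and Ccl5 are inflammatory chemokines that draw macrophages and T cells. Ccl19 acts on Ccr7 of dendritic cells and lymphocytes, and Ccl24 is an eosinophil attractant that acts on Ccr3. IL-1β is an inflammatory cytokine that signals through NF-kappaB and AP-1 and sets off acute-phase protein synthesis in hepatocytes.

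Ccl6 and Ccl9 are neighbouring genes that held the most counts of the 9, and the sequences before their start sites are shown for that reason. They are the 250 bases upstream of the RefSeq start in GRCm38.p6, a later build than that of the count tables, with matches to the motifs searched in capitals. The table of promoters held 4 of the 9 members, Ccl3, Ccl6, Ccl9 and Ccl19.
Ccl9 (chr11:83578637-83578886, minus strand): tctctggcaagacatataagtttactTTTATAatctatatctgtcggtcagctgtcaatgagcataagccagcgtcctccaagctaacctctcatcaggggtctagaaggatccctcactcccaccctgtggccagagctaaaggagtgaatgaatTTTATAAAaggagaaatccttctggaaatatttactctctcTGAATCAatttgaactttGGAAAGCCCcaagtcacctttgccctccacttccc
Ccl6 (chr11:83593088-83593337, minus strand): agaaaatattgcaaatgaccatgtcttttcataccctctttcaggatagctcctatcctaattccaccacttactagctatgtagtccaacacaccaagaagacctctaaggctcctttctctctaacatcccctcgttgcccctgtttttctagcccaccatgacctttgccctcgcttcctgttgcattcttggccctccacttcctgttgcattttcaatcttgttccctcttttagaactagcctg

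Both strands were searched for GGNNNTTCC, which is part of a kappaB site, and for TGANTCA, which AP-1 binds. The other motifs were TTGCNNAA, bound by C/EBP proteins, and the TATA box, searched as TATAAA. The Ccl9 window held 1 match to the kappaB motif beginning 35 bases before the start and 1 match to the AP-1 motif at 53 bases. It also held 3 matches to the TATA motif, at 92, 94 and 224 bases, of which those at 92 and 94 bases overlap. The Ccl6 and Ccl3 windows held 0 matches, and the Ccl19 window held 1, to the kappaB motif, at 249 bases. Among all 32851 promoter windows of this length, 15.7% held the kappaB motif, 6.75% the AP-1 motif, 9.56% the C/EBP motif and 12.4% the TATA motif. These matches describe letters in a window and not sites of binding.

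Pico libraries held 4024632 to 4134070 gene counts, those of V4 12013453 to 12352473 and those of TruSeq 12348864 to 12858237, so that 1 count weighs most in Pico. Hepatocyte markers were abundant in all libraries. The 6 markers together took 56600 to 63900 CPM (counts scaled to a library total of 1e6) after IL-1β and 68600 to 80300 after saline in Pico, 34400 to 40500 and 44000 to 57200 in V4, and 67800 to 71200 and 89200 to 108000 in TruSeq, and 4, 2 and 2 of them were called lower (Alb and Cps1 in each kit) and 2, 0 and 1 higher. The summed level of 8 neutrophil markers was higher after IL-1β in each kit, with 42 to 58.9 against 0.971 to 5.14 CPM (Pico), 42.1 to 82.8 against 2.15 to 5.24 (V4) and 47.6 to 92.8 against 3.36 to 6.16 (TruSeq), and 6, 5 and 6 of the markers were called higher. Ly6g, a defining neutrophil marker, was at 0 in all Pico and V4 libraries, as was Camp in Pico. The sum of 8 Kupffer cell and macrophage markers was lower, with 103 to 140 against 187 to 246 CPM (Pico), 53 to 83.2 against 102 to 200 (V4) and 67.3 to 97.7 against 136 to 229 (TruSeq). Of these, 4, 2 and 5 were called lower and 0, 0 and 1 (Marco, in TruSeq) higher. Of 6 endothelial markers, 3, 2 and 4 were called lower and 2, 0 and 1 higher, of 5 stellate cell and fibroblast markers 2, 1 and 3 lower, and of 4 B cell markers 0, 1 and 3 lower. Over all genes tested, 10.8% (Pico), 7.41% (V4) and 21.8% (TruSeq) were called lower, and 6.78%, 3.6% and 12.3% higher. The sums of the hepatocyte, Kupffer cell, endothelial, stellate cell and B cell lists were lower, and that of the neutrophil list higher, without overlap between the treatments in any kit, and their part in the results below was not tested. No marker of dendritic cells (5 genes) or eosinophils (3 genes) was called. In bulk liver, fewer cells of a type and less RNA per cell cannot be told apart.

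After IL-1β, 4 of the 9 CC chemokines were called higher in all 3 kits, of which Ccl7 in Pico rests on few counts, and none was called lower in any kit. At an adjusted p of at most 0.05 (limma-voom within each kit, Benjamini-Hochberg over all genes), 4 of 9 members were called higher in Pico, where 6.78% of all genes tested were. In V4 5 of 9 were called higher, against 3.6% of all genes, and in TruSeq 5 of 9, against 12.3%. Calls of lower levels took 10.8%, 7.41% and 21.8% of all genes and 0 of the members in Pico, V4 and TruSeq. Because the members were chosen with earlier results of these data known, these shares are a description and their difference was not tested. The 4 called in all 3 kits were Ccl2, Ccl6, Ccl7 and Ccl9, while Ccl19 was called in V4 and Ccl3 in TruSeq.

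The 9 members together took 206 to 228 CPM after IL-1β and 47.5 to 72.1 CPM after saline in Pico. The sums were 183 to 245 against 78.6 to 91 in V4, and 190 to 235 against 61.5 to 66.6 in TruSeq, and the groups did not overlap in any kit. Over the members the median log2 fold change was 1.61 (Pico), 2.08 (V4) and 1.69 (TruSeq), beside -0.12, -0.22 and -0.17 over all genes tested. With members at 0 in all saline libraries set to their lower bound, or left out where no bound could be had, the medians were 1.04, 2.08 and 1.69. Counts of the 2 treatments did not overlap and were higher after IL-1β for 4 members (Pico), 6 (V4) and 5 (TruSeq), where 11%, 8.71% and 14.5% of all genes had this pattern. Ccl24 alone had the opposite pattern, in V4 and TruSeq, where 18.2% and 29.3% of all genes did (19.2% in Pico). Scaling by TMM factors moved the median of all genes up by 0.13, 0.17 and 0.16 and the share of higher among all calls from 38.6% to 52.9%, from 32.7% to 49.7% and from 36% to 50.9%, and the members called in all 3 kits remained higher by more than this shift.

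**Figure D1:**
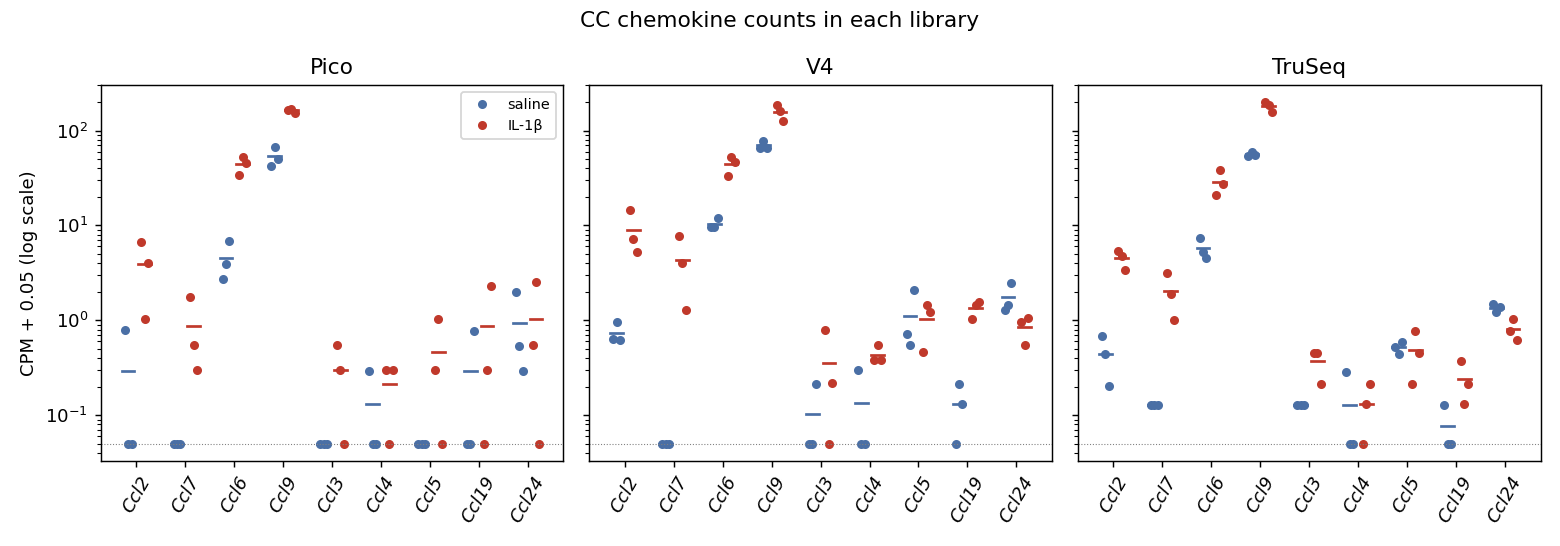
CPM plus 0.05, on a log scale, of the 9 CC chemokines (x axis) in each library of the 3 kits, with saline in blue, IL-1β in red and group means as bars; points on the dotted line are libraries at 0. Ccl6 and Ccl9 stand above the others in each kit and treatment, and their IL-1β libraries lie above their saline libraries.

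**Figure D2:**
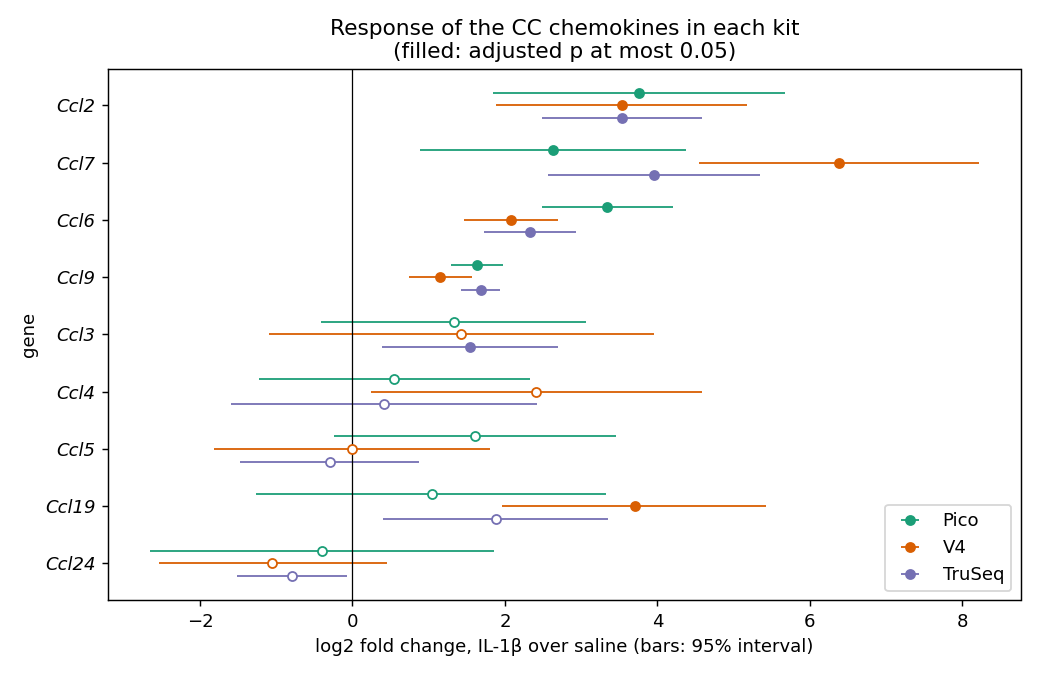
Log2 fold change of IL-1β over saline (x axis) for each member (y axis) in the 3 kits, with 95% intervals from limma-voom and filled points for an adjusted p of at most 0.05. Ccl2, Ccl7, Ccl6 and Ccl9 have filled points in all 3 kits, and the intervals of Ccl9 are the narrowest.

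The monocyte attractants Ccl2 and Ccl7 had few or no counts in saline livers and rose after IL-1β. Ccl2 (ENSMUSG00000035385, mm9 chr11:81849073-81850955, plus strand) had 67, 58 and 41 TruSeq counts after IL-1β and 8, 5 and 2 after saline. In V4 it had 178, 87 and 62 against 7, 11 and 7, and in Pico 27, 4 and 16 against 3, 0 and 0. The IL-1β libraries lay above all saline libraries in each kit, with mouse ILB.9582 in Pico only just above. The log2 fold change was 3.53 ± 0.47 (SE, n = 3 and 3, adjusted p = 0.000406) in TruSeq, 3.53 ± 0.75 (adjusted p = 0.0131) in V4 and 3.76 ± 0.9 (adjusted p = 0.00743) in Pico, all by limma-voom. With 3 saline counts in all, the Pico ratio of summed counts was 16 with an exact 95% interval of 5.14 to 80.2, which covers counting error only. The call in TruSeq was kept under all 11 alternatives tried. In Pico it was lost without mouse ILB.9579 (adjusted p = 0.0836), ILB.9583 (0.0717), UNT.9575 (0.0915) or UNT.9576 (0.102), and in V4 without UNT.9574 (0.0673), UNT.9575 (0.0693) or UNT.9576 (0.0613).

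Ccl7 (ENSMUSG00000035373, chr11:81859214-81861027, plus strand), whose protein acts on Ccr1 and Ccr3 as well as Ccr2, lies 8258 bases from Ccl2. It had 93, 48 and 15 V4 counts after IL-1β and 0 in the 3 saline libraries, which is at least 17.3-fold higher against a floor of 3 counts per library. TruSeq gave 39, 23 and 12 counts against 1, 1 and 1, a ratio of summed counts of 25.4 with an exact 95% interval of 8.37 to 126. Pico gave 7, 2 and 1 counts against 0, 0 and 0, at least 1.11-fold higher. All 3 kits placed every treated library above every saline library. The fitted log2 fold change was 3.96 ± 0.62 (SE) in TruSeq (adjusted p = 0.001, limma-voom), where a call was kept under all 11 alternatives. The fits of V4 (adjusted p = 0.000998) and Pico (adjusted p = 0.0357) start from saline groups at 0 and depend on the prior count, so no fitted fold is given for them. The V4 call was kept under all 11 alternatives. The Pico call was lost with edgeR (adjusted p = 0.0874) and without mouse ILB.9579 (0.185), ILB.9582 (0.103), UNT.9574 (0.106), UNT.9575 (0.0936) or UNT.9576 (0.106). It was kept under 3 of the 9 alternatives that gave an adjusted p. DESeq2 gave none for Ccl7 in Pico, and the filter of 10 counts in 3 libraries left it out. The summed level of 6 genes listed as markers of monocytes, the cells that both attract, was also higher after IL-1β. It was 20.3 to 25.8 against 0.485 to 5.14 CPM (Pico), 21.7 to 22.6 against 5.29 to 9.71 (V4) and 16.7 to 21.7 against 6.22 to 8.3 (TruSeq). Called higher were 1 of the 6 in Pico and 3 each in V4 and TruSeq, with Itgam in every kit. Ly6c2 was called in no kit (adjusted p = 0.46 in Pico, 0.216 in V4 and 0.203 in TruSeq, limma-voom). Neither was Ly6c1, with log2 fold changes of 0.27, 0.52 and -0.12. The part of these markers in the rise of Ccl2 and Ccl7 was not tested.

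Of the 9 members, Ccl6 and Ccl9 were the most abundant, present in saline and higher after IL-1β in every kit. Outside the 9, some CC ligands had mean saline levels near that of Ccl6. Ccl25 had 4.71 CPM against 4.45 for Ccl6 in Pico, and Ccl27a had 8.03 against 10.3 in V4. Ccl6 (ENSMUSG00000018927, chr11:83401384-83406589, minus strand) had 261, 474 and 342 TruSeq counts after IL-1β and 93, 67 and 58 after saline. V4 gave 408, 642 and 563 against 116, 115 and 146, and Pico 138, 212 and 182 against 11, 16 and 28. The lowest treated library was well above the highest saline library in each kit. The log2 fold change was 2.33 ± 0.27 (SE, adjusted p = 0.000184) in TruSeq, 2.08 ± 0.28 (adjusted p = 0.00118) in V4 and 3.34 ± 0.41 (adjusted p = 2.17e-05) in Pico, by limma-voom. All 3 calls were kept under each of the 11 alternatives, over which the log2 fold change ran from 2.10 to 2.54, from 1.94 to 2.28 and from 3.04 to 3.69.

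Ccl9 (ENSMUSG00000019122, chr11:83386421-83392138, minus strand), also a ligand of Ccr1, held the most counts. TruSeq gave 2483, 2320 and 1946 after IL-1β and 686, 758 and 705 after saline. V4 gave 2257, 1934 and 1518 against 795, 949 and 812, and Pico 664, 683 and 623 against 171, 279 and 208. The groups were far apart in all 3 kits, and the treated libraries differed among themselves less than those of Ccl2 or Ccl7 did. The log2 fold change was 1.69 ± 0.11 (SE, adjusted p = 9.57e-06) in TruSeq, 1.15 ± 0.19 (adjusted p = 0.00337) in V4 and 1.63 ± 0.16 (adjusted p = 2.78e-06) in Pico, by limma-voom. These calls too were kept under each of the 11 alternatives, with log2 fold changes of 1.61 to 1.85, 1.02 to 1.33 and 1.48 to 1.82.

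Ccl3, Ccl4 and Ccl5, products of activated macrophages and lymphocytes, were close to the limit of what these depths can count. Ccl3 (ENSMUSG00000000982, chr11:83461346-83462857, minus strand) had 5, 5 and 2 TruSeq counts after IL-1β and 1, 1 and 1 after saline, a ratio of 4.12 with an exact 95% interval of 1.11 to 22.8. It was called higher there (log2 fold change 1.54 ± 0.51, SE, adjusted p = 0.0431, limma-voom), and in few of the alternatives: the call was kept under 2 of 10. It was lost with edgeR (adjusted p = 0.058), with DESeq2 (0.173), at equal depth (0.537), and without mouse ILB.9579 (0.122), ILB.9582 (0.122), UNT.9574 (0.102), UNT.9575 (0.103) or UNT.9576 (0.102). V4 gave 9, 0 and 2 counts against 0, 0 and 2 (adjusted p = 0.508), and Pico 2, 1 and 0 against 0, 0 and 0 (adjusted p = 0.317), where the groups overlapped.

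Ccl4 (ENSMUSG00000018930, chr11:83476086-83478185, plus strand) had 4, 6 and 4 V4 counts after IL-1β and 3, 0 and 0 after saline, which did not overlap and were not called (adjusted p = 0.155, limma-voom). TruSeq gave 0, 1 and 2 against 3, 0 and 0, and Pico 1, 0 and 1 against 1, 0 and 0. Ccl5 (ENSMUSG00000035042, chr11:83339280-83344020, minus strand), best known from T and NK cells, had 5, 17 and 14 V4 counts after IL-1β and 8, 6 and 25 after saline. Its TruSeq counts were 2, 9 and 5 against 6, 5 and 7, and its Pico counts 1, 4 and 0 against 0, 0 and 0. The groups of Ccl5 overlapped in each kit, and no difference was called. The 95% interval of its TruSeq log2 fold change, -1.48 to 0.87, leaves room for a change in either direction. The 9 T and NK cell markers summed to 2.22 to 6.44 CPM after IL-1β and 2.9 to 3.88 after saline (Pico), 1.16 to 4.15 and 2.56 to 6.64 (V4), and 1.45 to 2.59 and 3.58 to 4.06 (TruSeq), with 1 marker called higher in Pico (Ncr1) and 1 lower in TruSeq (Cd4).

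Ccl19 (ENSMUSG00000071005, mm9 chr4:42768057-42770109, minus strand), a ligand of lymphoid stroma, had 12, 17 and 18 V4 counts after IL-1β and 0, 2 and 1 after saline. The ratio of summed counts was 15.7 with an exact 95% interval of 5.07 to 79.1, and the log2 fold change of 3.70 ± 0.79 (SE) was called (adjusted p = 0.0133, limma-voom). The call was lost with edgeR (adjusted p = 0.0512), when 10 counts in 3 or more libraries were required (0.056) and without mouse ILB.9582 (0.0522), ILB.9583 (0.0543) or UNT.9574 (0.0786). TruSeq gave 4, 1 and 2 counts against 1, 0 and 0 (adjusted p = 0.0524), which was called with TMM factors (0.039) and without mouse UNT.9574 (0.0468). Pico gave 0, 1 and 9 against 0, 0 and 3, so that mouse ILB.9583 held nearly all treated counts.

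The counts of Ccl19 are uncertain because reads from part of its exons can be split with near-identical copies. Of the 867 exon bases of Ccl19, 285 aligned with the exons of the pseudogene Ccl19-ps3 and were 100% identical. Those of Ccl19-ps1 were 99% identical over 286 bases. Ccl19-ps3 had 10, 13 and 11 V4 counts after IL-1β and 0 after saline, and 7, 3 and 3 TruSeq counts against 0, 1 and 0. Both were called higher (adjusted p = 0.00196 and 0.00803, limma-voom). In TruSeq the copy was thus called where Ccl19 was not, and in Pico it had 0, 2 and 0 counts against 2, 0 and 0. With the counts of Ccl19 and its pseudogenes added together, a setting chosen after seeing the data, the log2 fold change was 4.23 ± 0.76 (SE) in V4 (adjusted p = 0.00562), 2.71 ± 0.62 in TruSeq (adjusted p = 0.00773) and 1.44 ± 0.91 in Pico (adjusted p = 0.332).

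Ccl24 (ENSMUSG00000004814, mm9 chr5:136045807-136048913, minus strand) had fewer counts after IL-1β in the poly(A) kits, without overlap between the groups. TruSeq gave 9, 12 and 7 counts after IL-1β and 18, 15 and 17 after saline, and V4 11, 6 and 12 against 15, 17 and 30. The treated libraries lay below all saline libraries in both kits, yet neither difference was called, with log2 fold changes of -0.79 ± 0.32 (SE, adjusted p = 0.0883) and -1.05 ± 0.68 (adjusted p = 0.394, limma-voom). In Pico the counts were 2, 10 and 0 against 8, 2 and 1 and overlapped. Markers of eosinophils, the cells that Ccl24 attracts, were nearly absent, with Epx at 0 in all 18 libraries and at most 0.567 CPM over the 3 markers.

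Of the 9 members, 7 are on chromosome 11, in a group with Ccl2 and Ccl7 and in another with Ccl5, Ccl9, Ccl6, Ccl3 and Ccl4 that begins 1490.2 kb further on. In the first group, Ccl2 and Ccl7 were called in each kit, whereas their neighbours Ccl11, Ccl12 and Ccl8, which start 22.3, 66.3 and 79.6 kb from the start of Ccl2, were called in none. Those 3 had at most 8 counts in any library, too few to show a lack of response, and their difference from Ccl2 and Ccl7 was not tested. In the second, Ccl9 and Ccl6 are 9245 bases apart and were called in each kit. Ccl5, which ends 42400 bases before Ccl9, was called in none, and neither was Ccl4, while Ccl3 was called in TruSeq alone. Ccl4 had at most 6 counts in any library, too few to show a lack of response. The differences of these 3 genes from Ccl9 and Ccl6 were not tested. No exon of the 9 genes overlapped an exon of another gene in the annotation, so the unstranded V4 counts did not draw on an annotated exon of the other strand.

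**Figure D3:**
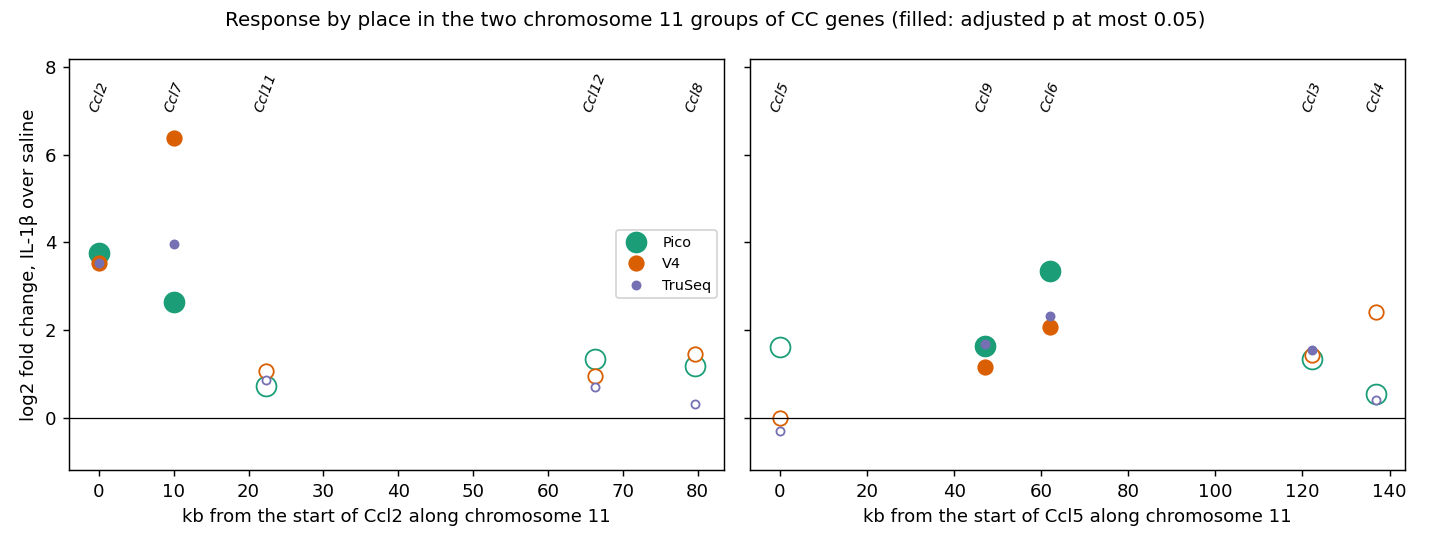
Log2 fold change of IL-1β over saline (y axis) by distance along chromosome 11 in kb from the start of Ccl2 (left) and of Ccl5 (right), for 10 CC ligand genes in Pico (large circles), V4 (medium) and TruSeq (small), filled where the adjusted p was at most 0.05. Filled circles in all 3 kits stand at Ccl2 and Ccl7, which start 10.1 kb apart, and at Ccl9 and Ccl6, 47.1 and 62.1 kb from the start of Ccl5.

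Levels per length, as CPM per kilobase of exons (RPKM), put the highest members in the same order in each kit. The order of the low ones differed, with Ccl19 at rank 5 in Pico and V4 and rank 8 in TruSeq after IL-1β. After IL-1β, Ccl9 was highest, at 59.6 ± 7.29 (SD, n = 3) RPKM in TruSeq, 51.6 ± 9.81 in V4 and 53.4 ± 2.57 in Pico. Ccl6 followed at 16.1 ± 4.89, 24.8 ± 5.6 and 24.5 ± 5.2 RPKM, with ranges over the mice that did not overlap those of Ccl9 or of the next gene. Ccl2 was the third at 3.92 ± 0.934, 7.9 ± 4.38 and 3.41 ± 2.5 RPKM, and Ccl7 the fourth at 2.48 ± 1.36, 5.35 ± 4.01 and 1.03 ± 0.991. The ranges of Ccl2 and Ccl7 overlapped in each kit, so their order was not resolved, and Ccl7 also overlapped with Ccl19 in V4 and Pico. The other 5 members had means of at most 0.585 RPKM in TruSeq, 1.49 in V4 and 0.952 in Pico, with neighbours that overlapped.

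After saline, Ccl9 was again highest, at 18.4 ± 0.898 (SD, n = 3) RPKM in TruSeq, 23 ± 2.38 in V4 and 17.5 ± 4.33 in Pico, and Ccl6 was the second at 3.17 ± 0.822, 5.75 ± 0.72 and 2.48 ± 1.17. The third place was that of Ccl24, at 1.01 ± 0.0978, 1.31 ± 0.497 and 0.695 ± 0.721 RPKM, which overlapped with the next gene in V4 and Pico and, in Pico, with Ccl6. Ccl2 stood lower in each kit, behind Ccl5 or Ccl19 as well, at 0.345 ± 0.209, 0.603 ± 0.17 and 0.215 ± 0.373 RPKM. Ccl7 was at 0 in V4 and Pico and had 1 count in each saline library of TruSeq.

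The 3 treated mice kept their order across kits for some members, as a plot of their levels shows. For Ccl7, mouse ILB.9579 was highest and ILB.9583 lowest in all 3 kits, and the highest level was 3.25 times the lowest in TruSeq, 6.14 times in V4 and 6.99 times in Pico. The Pico order rests on 7, 2 and 1 counts and is therefore uncertain. For Ccl6 the order was ILB.9582, ILB.9583, ILB.9579 in all 3 kits, with ratios of 1.83, 1.59 and 1.54. Mouse ILB.9579 thus had the highest Ccl7 and the lowest Ccl6 in each kit. Ccl2 followed the order of Ccl7 in TruSeq and V4, and in Pico mouse ILB.9582 was lowest, with 4 counts. For Ccl9 mouse ILB.9583 was lowest in each kit, with ratios of 1.27, 1.47 and 1.1. These orders describe 3 animals and were not tested.

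**Figure D4:**
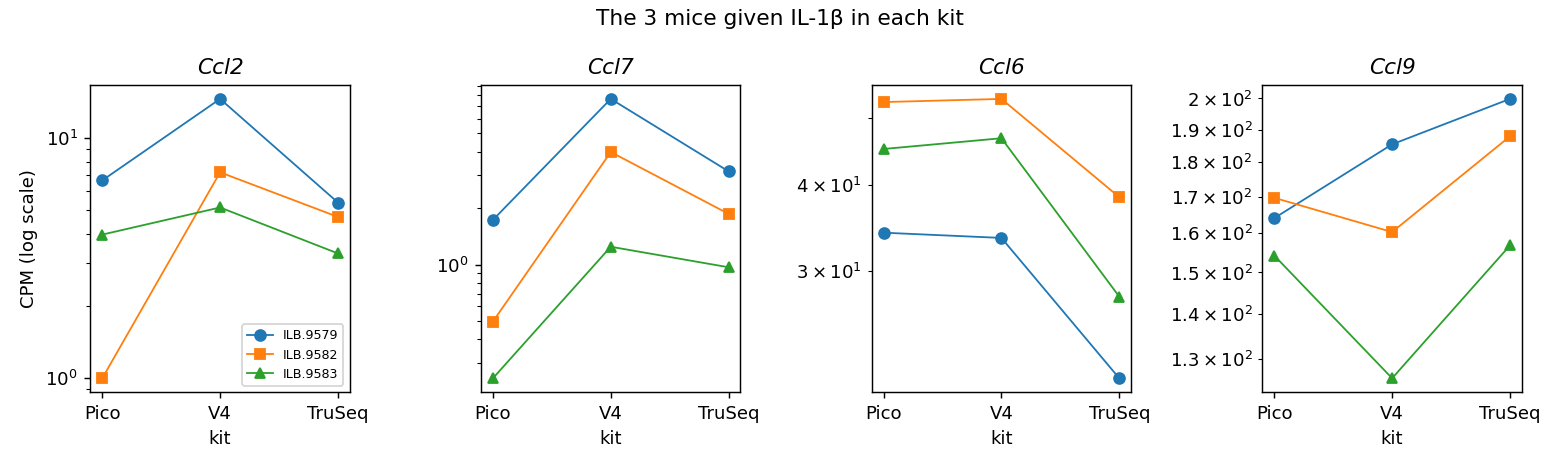
CPM (y axis, log scale, with a range of its own in each panel) of Ccl2, Ccl7, Ccl6 and Ccl9 in the 3 mice given IL-1β, by kit (x axis), with 1 line for each mouse. The lines of Ccl7 and of Ccl6 do not cross, with mouse ILB.9579 at the top for Ccl7 and at the bottom for Ccl6. The Pico points of Ccl7 are 7, 2 and 1 counts.

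Whether the response differed between kits was tested by the interaction of kit and treatment over the 12 libraries of each pair of kits, with the 3 pairs fitted separately. Of all genes tested, 0% were called between Pico and TruSeq (0 of 17207), between V4 and TruSeq (0 of 17147) and between Pico and V4 (0 of 16395, limma-voom), and no member was called. At an unadjusted p under 0.05 there were 945, 1090 and 900 genes, or 5.49%, 6.36% and 5.49%. A call of Ccl3 in TruSeq or of Ccl19 in V4 alone is therefore not shown to be a difference between kits.

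For the members the intervals of the difference remained wide in these fits, which had no term for the mouse although each mouse was in every kit. The log2 fold change of Ccl7 in Pico minus that in V4 was -3.75 ± 1.4 (SE, 95% interval -6.69 to -0.8, adjusted p = 0.766, limma-voom), a value that depends on the prior count because saline was at 0 in both kits. That of Ccl6 was higher in Pico than in V4 by 1.26 ± 0.56 (0.07 to 2.45, adjusted p = 0.866) and higher than in TruSeq by 1.02 ± 0.54 (-0.12 to 2.16, adjusted p = 0.9). That of Ccl9 differed by -0.54 ± 0.22 (-1.01 to -0.06, adjusted p = 0.683) for V4 minus TruSeq and by -0.05 ± 0.2 (-0.48 to 0.37, adjusted p = 0.987) for Pico minus TruSeq. For Ccl2 the difference between V4 and TruSeq was 0.00 ± 0.92 (-1.97 to 1.97). Only for Ccl9, between Pico and TruSeq, did a 95% interval of these fits lie within 1 log2 unit of 0 on both sides. With the mouse as a replicate block, the difference for V4 minus TruSeq was -0.53 ± 0.13 (SE) for Ccl9 and -0.24 ± 0.3 for Ccl6. The SE grew for some members, as for Ccl19 in that pair (1.16 against 1), and no member was called.

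Of the 15 CC ligands outside the 9, 8 (Pico), 11 (V4) and 10 (TruSeq) were measured, and 2 were called higher in each kit, Ccl20 and Ccl17. Of all genes, 6.78%, 3.6% and 12.3% were called higher, and in TruSeq 21.8% lower. Ccl20, the ligand of Ccr6 on lymphocytes and dendritic cells, had 60, 45 and 22 TruSeq counts after IL-1β and 0 after saline. It had 123, 140 and 32 against 0 in V4 and 14, 3 and 5 against 0 in Pico, so that it was at least 14.1-fold, 32.8-fold and 2.44-fold higher (adjusted p = 0.000138, 0.000492 and 0.00241, limma-voom). Ccl20 was thus, like Ccl7, undetected or nearly so in saline livers. Ccl17, a Ccr4 ligand, had 5, 2 and 3 TruSeq counts against 0, 15, 5 and 5 V4 counts against 1, 0 and 0, and 3, 1 and 3 Pico counts against 0 (adjusted p = 0.00239, 0.0253 and 0.0406). Ccl20 kept its calls under every alternative in which it was tested. Ccl17 lost its TruSeq call at equal depth (adjusted p = 0.236), its Pico call with edgeR (0.159) and without any one of the 6 mice (0.0529 to 0.147), and its V4 call with edgeR (0.13), with DESeq2 (0.0721), at equal depth (0.0521) and without each mouse other than UNT.9574 (0.06 to 0.117). Ccl27a was called lower in TruSeq, with 27, 29 and 24 counts against 41, 43 and 52 (adjusted p = 0.0286), and it has near-identical copies, so its counts are uncertain. That call was lost with TMM factors (adjusted p = 0.0796), edgeR (0.0606), DESeq2 (0.174) and equal depth (0.177), and without ILB.9579 (0.0666), ILB.9582 (0.051), ILB.9583 (0.0705) or UNT.9576 (0.0639).

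Of 14 CC receptors, 10 were measured in Pico and 13 in TruSeq, while V4 listed 14 genes because 2 identifiers share the symbol Ccrl1. In Pico, V4 and TruSeq, 2, 1 and 2 receptors were called higher, beside 6.78%, 3.6% and 12.3% of all genes. Called lower were 0, 1 and 1, beside 10.8%, 7.41% and 21.8%. Ccr1, the receptor of Ccl6 and Ccl9 on neutrophils and monocytes, was called higher in each kit. It had 24, 48 and 31 TruSeq counts after IL-1β and 5, 1 and 4 after saline (log2 fold change 3.37 ± 0.54, SE, adjusted p = 0.00113, limma-voom). V4 gave 20, 63 and 17 against 7, 0 and 2 (adjusted p = 0.0347), and Pico 13, 6 and 7 against 0, at least 2.89-fold higher (adjusted p = 0.000434). The V4 call of Ccr1 was lost when 10 counts in 3 or more libraries were required (adjusted p = 0.104) and without ILB.9579 (0.0607), ILB.9582 (0.112), ILB.9583 (0.0647), UNT.9575 (0.2) or UNT.9576 (0.103). Ccr1 and the neutrophil list were both higher after IL-1β, and whether the same cells gave rise to both was not tested.

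Ccrl2, an atypical receptor that binds chemerin, had 28, 29 and 32 TruSeq counts against 14, 18 and 13 (adjusted p = 0.0126, limma-voom; 0.142 at equal depth) and 9, 9 and 9 Pico counts against 0, 0 and 2 (adjusted p = 0.00343). In V4 it had 77, 71 and 51 against 26, 22 and 7 and missed the threshold (adjusted p = 0.0504). The scavenging receptors Ccbp2 and Ccrl1 were called lower in 1 kit each. Ccbp2 (Ackr2), which takes up inflammatory CC chemokines, had 0, 6 and 4 V4 counts against 24, 34 and 21 (adjusted p = 0.0346) and 14, 7 and 11 TruSeq counts against 15, 17 and 18 (adjusted p = 0.186). Its Pico counts of 6, 7 and 10 against 2, 10 and 5 overlapped (adjusted p = 0.615), and its V4 call was kept under 2 of 11 alternatives, with adjusted p up to 0.149. It was lost with edgeR (adjusted p = 0.1), under the count filter (0.0813), at equal depth (0.0794) and without any one of the 6 mice (0.0512 to 0.149). Ccrl1 (Ackr4, ENSMUSG00000079355), which takes up Ccl19, had 0 TruSeq counts after IL-1β and 4, 13 and 4 after saline, at least 2.33-fold lower (adjusted p = 0.00154). It had 0, 5 and 5 V4 counts against 6, 6 and 27 (adjusted p = 0.271, limma-voom) and 1, 0 and 0 Pico counts against 1, 0 and 4 (0.522). The other V4 identifier of this symbol, ENSMUSG00000041748, had 7, 3 and 1 counts against 5, 5 and 3 (0.781). The Ccl2 receptor Ccr2 had 19, 25 and 11 TruSeq counts against 27, 20 and 21 (adjusted p = 0.527, limma-voom), 7, 18 and 4 V4 counts against 11, 0 and 6 (0.541) and 13, 3 and 6 Pico counts against 7, 13 and 10 (0.629).

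The genes whose levels ran most like those of Ccl9 and Ccl6 were sought among the 8960 genes that averaged 20 counts or more in each kit, by the Pearson correlation r over the 18 libraries of log2(CPM + 1), centred within each kit. For Ccl9 they were Eif1a (Pearson r = 0.985), a translation initiation factor, BC057022 (0.982) and Nfxl1 (0.981). For Ccl6 they were S100a9 (0.969), a calcium-binding protein abundant in neutrophils and a member of the neutrophil list, Gm10309 (0.968) and Pcid2 (0.967). Ccl6 and Ccl9 had r = 0.928 with each other. The libraries are 6 mice in 3 kits and share the treatment, so these values describe shared changes and have no p-value. Ccl2 fell under the minimum count in Pico and was not compared.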

How the data were processed

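The authors aligned paired-end reads to mm9 with GSNAP, used the PORT pipeline to equalise depth by resampling reads, and deposited counts in whole reads per gene. V4 counts take both strands, those of the other kits the sense strand. TruSeq was sequenced on another instrument, with 125 instead of 150 bp reads. The Pico preparation was repeated and the labels do not name the run. The 3 tables were normalized separately, so each kit was fitted by itself.

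Tests used limma-voom (limma 3.58.1, R 4.3.3) with library totals, all genes above 0 in at least 1 library and an adjusted p of at most 0.05, two-sided. Kits were compared through an interaction term. Alternatives used edgeR 4.0.16 (quasi-likelihood with TMM factors), DESeq2 1.42.0, TMM factors in voom, a count filter, thinning to 4024632 counts per library, other cutoffs, and fits without each mouse. The scripts were tested on simulated data. Lengths and mm9 coordinates came from GENCODE vM1, whose build is that of the tables, and promoters from RefSeq. Aligned bases were scored with Biopython 1.88, and figures drawn with matplotlib 3.10.9 in Python 3.11.15. A floor of 3 counts and the intervals cover counting error only, since the reads carry no molecular identifiers.

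The members, lists and tests were chosen with earlier results of these data known. Named genes were the 9 members, other CC ligands and receptors called in at least 1 kit, the closest 3 genes by correlation for abundant members called in all kits, and the motifs listed. Ccr2, Ccl8, Ccl11, Ccl12, Ccl25 and the Ccl19 pseudogenes were named after their values were seen. Replicates are different mice. Libraries of one mouse in different kits are pairs, because they are aliquots of the same RNA. Their deviations from the group means correlated at 0.194 to 0.446 (Pico and TruSeq), 0.168 to 0.458 (V4 and TruSeq) and 0.0796 to 0.234 (Pico and V4). No replicate pair agreed within sampling noise.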

Additional observations from a re-analysis of the deposited data

How the results depend on the processing

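Ccl6 and Ccl9 kept their calls in all 3 kits, and Ccl7 and Ccl2 in TruSeq, under each alternative. The number of members called higher in Pico fell from 4 to 2 when 10 counts in 3 libraries were required, which leaves fewer members to test, and to between 2 and 3 without a single mouse. In V4 it went from 5 to 3 at an adjusted p of 0.01, and ranged from 3 to 5 without a single mouse. In TruSeq 1 member, Ccl24, was called lower at an adjusted p of 0.1. Of the other CC ligands, the number called higher went from 2 to 1 in Pico with edgeR, with DESeq2 and without any single mouse, and to 0 under the count filter, and in V4 from 2 to 1 with edgeR, with DESeq2, under the count filter, at equal depth and without any one of 4 mice. Members that were not called changed sign in some settings, and the cause was not tested. With edgeR and with DESeq2 the log2 fold change of Ccl24 in Pico was 0.27 and that of Ccl5 in TruSeq 0.03. Without single mice the log2 fold change ran from -0.12 to 2.01 for Ccl19 and from -1.48 to 0.72 for Ccl24 in Pico, and from -0.1 to 1.35 for Ccl4 and from -0.76 to 0.21 for Ccl5 in TruSeq.

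Differences in response between kits also changed sign. For Pico minus TruSeq, that of Ccl7 was 1.19 with edgeR and that of Ccl19 was 0.48 at equal depth. Without single mice it ran from -0.32 to 1.02 for Ccl2, from -0.19 to 0.09 for Ccl9 and from -2.01 to 0.54 for Ccl19. For V4 minus TruSeq it ran from -0.49 to 0.01 for Ccl6, and for Pico minus V4 from -0.45 to 1.26 for Ccl2. With the mouse as a replicate block 0 members were called in each pair of kits, and 1 gene that is no member was called between Pico and TruSeq. The block changed no other call. Without mouse UNT.9576, 59 genes were called for V4 minus TruSeq and 39 for Pico minus V4, none of them a member. By single-transcript instead of exon union length, the mean Ccl6 level after IL-1β was 30.5 RPKM in Pico and 30.9 in V4, and its rank did not change, while Ccl7 went from the fourth to the fifth place in Pico after IL-1β and Ccl24 from the third to the fourth in V4 after saline. In Pico 1 count is the difference between detection and 0 for Ccl3, Ccl4, Ccl5 and Ccl7.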
